A study of Mus musculus with 134 samples.

Results

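Skeletal muscle genes were followed in mammary tumors as a set of 40 genes of the sarcomere, of calcium handling and of muscle energy supply. A gene was taken where a probe set of the array carried its symbol alone, and the probe set with the highest mean was used where there were several. All 40 genes had one, out of 19938 genes on the array. By textbook fiber type, 14 of them belong to fast fibers, 8 to slow fibers and 18 to both fiber kinds.

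The arrays came from 134 mammary tumors of a MOLF backcross, 1 tumor per animal, in a single group with no untreated or tumor-free sample. The labels give each of the 134 arrays an animal of its own. The donors were PyMT+ N2 females, bred from MMTV-PyMT males and MOLF/EiJ females by crossing the PyMT+ F1 males to FVB/NJ females. Every animal thus carried the polyoma middle T transgene driven by the MMTV promoter, each with its own draw of MOLF/EiJ alleles on an FVB/NJ background, and tumors were taken near the humane endpoint at an age that the sources used here do not give. An animal of this cross carries several mammary tumors, and which gland the arrayed piece came from is not given either.

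A skeletal muscle fiber shortens when myosin thick filaments pull on actin thin filaments that are anchored at the Z-disc. Calcium released from the sarcoplasmic reticulum switches the thin filament on through the troponin complex, and a calcium pump switches it off again. Fast and slow fibers use different genes for many of these parts, and the mammary gland itself is made of no skeletal muscle fiber, although thin sheets of muscle lie under the skin near the mammary fat pads.

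The values are deposited log2 levels, so 1 unit is a doubling. Levels of different genes come from different probes and were not compared with each other. Each gene was instead described by its deviation from its own median over the tumors. A level of 5.72 served as a floor, since the means of 95% of 1190 odor and pheromone receptor genes (olfactory and vomeronasal), which a mammary tumor should lack, lay below it. Of the 40 genes, 35 had a mean above it. The tumors bore epithelial RNA throughout, with Epcam, an epithelial adhesion molecule, at 11.2 ± 0.243 (SD, n = 134), but tumor 73 stood apart at 9.45, against 10.4 or more in each of the others. Its array also deviated more than most (median absolute deviation over genes 0.247, against a median of 0.0983 over the arrays and a highest value of 0.269 in tumor 58). Tumors 107 to 134 form a run of label numbers of their own, whose meaning is not given.

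Promoters of 32 of the 40 genes were found in RefSeq (GRCm38.p6), and the 250 bases before the start are printed for 4 of them. These are a pair that varied widely between tumors and a pair whose measured levels hardly varied. Capitals mark the E-box core CAGCTG, the MEF2 motif, the CArG box and the TATA box sequence TATAAA on either strand. In Myh4, the fast IIb myosin heavy chain, the MEF2 motif and a TATAAA on the opposite strand share bases.
Myh4: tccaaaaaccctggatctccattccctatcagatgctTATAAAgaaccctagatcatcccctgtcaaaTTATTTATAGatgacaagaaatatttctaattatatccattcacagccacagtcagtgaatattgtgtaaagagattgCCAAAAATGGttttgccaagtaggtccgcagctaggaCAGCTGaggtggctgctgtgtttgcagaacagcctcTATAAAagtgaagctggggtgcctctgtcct
Acta1: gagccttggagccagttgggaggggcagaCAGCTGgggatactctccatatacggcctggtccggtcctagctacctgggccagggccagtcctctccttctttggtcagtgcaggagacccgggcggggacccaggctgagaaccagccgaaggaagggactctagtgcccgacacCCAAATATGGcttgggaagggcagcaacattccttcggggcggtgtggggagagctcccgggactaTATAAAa
Myl3: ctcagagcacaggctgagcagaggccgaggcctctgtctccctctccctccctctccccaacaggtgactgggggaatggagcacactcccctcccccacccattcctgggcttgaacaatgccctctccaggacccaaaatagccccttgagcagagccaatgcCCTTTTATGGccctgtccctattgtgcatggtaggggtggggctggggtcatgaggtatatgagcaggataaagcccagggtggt
Casq2: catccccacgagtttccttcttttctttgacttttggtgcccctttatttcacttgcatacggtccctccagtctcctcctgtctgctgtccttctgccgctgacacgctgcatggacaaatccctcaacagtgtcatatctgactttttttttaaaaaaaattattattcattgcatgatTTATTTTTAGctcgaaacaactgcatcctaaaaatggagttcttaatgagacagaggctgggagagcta
These stretches lie at chr11:67237562-67237811 (plus strand) for Myh4, chr8:123894776-123895025 (minus strand) for Acta1, the skeletal actin gene, chr9:110763428-110763677 (plus strand) for Myl3, the slow essential light chain, and chr3:102086165-102086414 (plus strand) for Casq2, the slow and cardiac calsequestrin. Counted back from the start, the CArG box began at base -104 in Myh4, -73 in Acta1 and -85 in Myl3, and the MEF2 motif at base -182 in Myh4 and -69 in Casq2. The CArG box thus stood before genes that varied widely, Myh4 and Acta1, and before Myl3, whose level hardly varied. For the MEF2 motif no such contrast could be read. Casq2 was above the floor in 0 of 134 tumors, so its variation is unknown. A relation of motif to variation was not tested.

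Over the 32 promoters, CAGCTG, a core that myogenic basic helix-loop-helix factors bind, was present in 14 (43.8%), against 13% of all 32851 promoters of that length. The MEF2 motif was present in 6 (18.8%), against 2.92%, the CArG box in 4 (12.5%), against 1.47%, and TATAAA in 6 (18.8%), against 12.4%. By fiber type, CAGCTG stood in 5 of 10 fast, 7 of 14 both-kind and 2 of 8 slow promoters. For Mb, Myh7, Myl2, Pvalb and Tnni1 the table holds several starts, of which the first was used. Tnni2, Tnnt3, Actn3, Myoz1, Neb, Myom2, Tcap and Trdn had no entry.

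The 40 genes spread far more than a usual gene. Their median SD across tumors was 1.06, against 0.187 for all 19938 genes, 23 of the 40 had an SD above 1, and 17 of them were among the 50 genes of largest SD on the array. By class, the median SD was 1.29 for fast, 1.06 for both-kind and 0.151 for slow genes. Since these are bulk tumors, more muscle fibers in a piece and more RNA of these genes per fiber cannot be told apart. Tumor 73 had the highest level of 34 of the genes, tumor 107 of 3 and tumor 58 of 3.

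**Figure D1:**
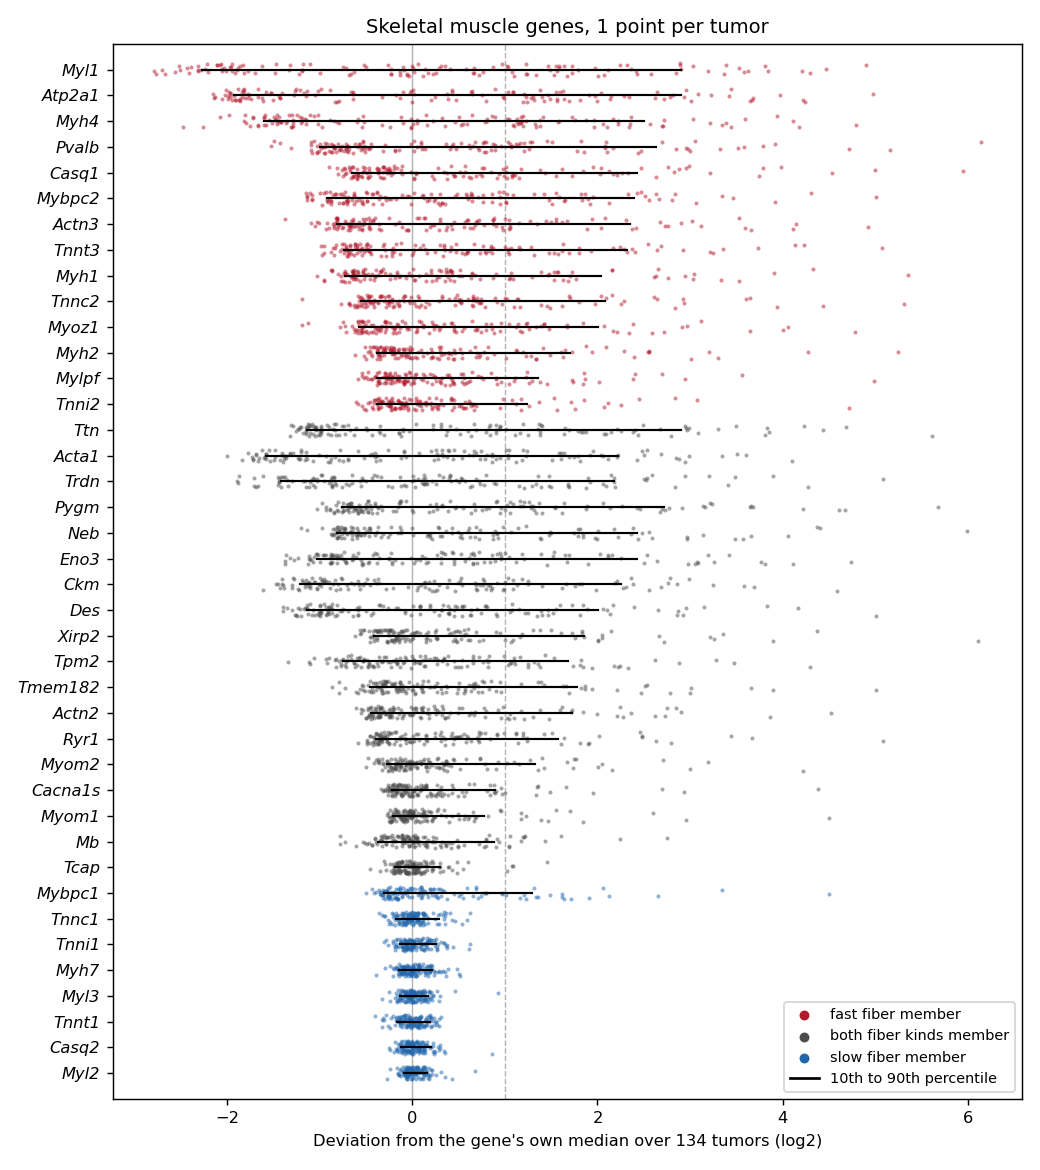
Deviation of each of the 40 genes from its own median (log2, horizontal axis), with 1 point per tumor (n = 134), a bar from the 10th to the 90th percentile and a dashed line at 1 unit. Fast genes (red) and most genes of both fiber kinds (gray) trail far to the right, by up to 6.14 for Pvalb, whereas 7 of 8 slow genes (blue) stay within 1 unit of their median.

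Among the thick filament genes of fast fibers, Myh4 had a lowest level of 5.42, a median of 7.89 and a highest of 12.7, and it lay at least 1 unit above its median in 48 tumors. Myh1, the IIx heavy chain, ran from a lowest of 4.98 over a median of 6.01 to a highest of 11.4. Myh2, the IIa heavy chain, ran from 4.85 over 5.47 to 10.7 and was above the floor in 55 tumors only. The 3 heavy chain genes are close copies of each other on chromosome 11, so probes of one may have read another. Their levels were closely tied in these tumors, with r = 0.94 between Myh4 and Myh1, 0.89 between Myh4 and Myh2 and 0.97 between Myh1 and Myh2 (n = 134, as a description). Myl1, the fast essential light chain, had the widest spread of the 40 genes, with a lowest level of 4.69, a median of 7.48, a highest of 12.4 and an SD of 1.98. Mylpf, the fast regulatory light chain, lay near the floor in most tumors (median 5.54) and reached 10.5 in tumor 73, with 9.10 in tumor 61 the next highest. Mybpc2, the fast myosin-binding protein C, ran from 5.61 over 6.77 to 11.8.

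The fast thin filament switch behaved alike. Tnnc2, the calcium-binding troponin C of fast fibers, had a lowest level of 5.69, a median of 6.88 and a highest of 12.2. Tnni2, the inhibitory subunit, ran from 7.02 over 7.63 to 12.3, and Tnnt3, the tropomyosin-binding subunit, from 6.88 over 7.86 to 12.9. At the Z-disc, Actn3, the fast alpha-actinin, ran from 6.31 over 7.68 to 12.6, and Myoz1, a calcineurin-binding Z-disc protein, from 5.12 over 6.31 to 11.1. Each of these 5 genes lay at least 1 unit above its median in 18 to 35 tumors.

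The calcium genes of fast fibers held the largest deviation of the 40 genes, in Pvalb. Atp2a1, the fast calcium pump, had a lowest level of 6.15, a median of 8.30 and a highest of 13.3 and was at least 1 unit above its median in 50 tumors, the most of any of the 40 genes. Casq1, the calcium store protein of fast fibers, stood at 12.1 in tumor 73, 62.0-fold its median. Pvalb, the calcium buffer parvalbumin, stood at 12.8 there, 70.7-fold its median. Both were also high in other tumors, with the second highest deviation in tumor 61 (Casq1 4.99 and Pvalb 5.16 above the median) and with 4.54 and 4.72 in tumor 107.

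The genes of both fiber kinds ranged in SD from 1.61 for Ttn to 0.27 for Tcap, with most values in between. Acta1 had a lowest level of 6.91, a median of 8.91 and a highest of 13.0, and Ckm, the muscle creatine kinase, ran from 6.71 over 8.33 to 12.9. Both were above the floor in all 134 tumors. Neb and Ttn, the giant rulers of the thin and the thick filament, stood 5.99 and 5.62 above their medians in tumor 73, and 4.41 and 4.69 in tumor 61, the next highest. Pygm, the muscle glycogen phosphorylase, stood 5.68 above its median in tumor 73 and 4.67 in tumor 61. Eno3, the muscle enolase, stood 4.74 above in tumor 73 and 4.11 in tumor 107, and Des, the intermediate filament protein desmin, 5.01 and 4.17 in the same tumors. Xirp2, an actin-binding repair protein, stood at a level of 11.1 in tumor 73 and 9.35 in tumor 107, but it was above the floor in 30 tumors only, so its distance from its median (4.98, below the floor) has no firm size. The calcium release genes Ryr1 and Cacna1s, the release channel and its voltage sensor, stood 5.08 and 4.38 above their medians in tumor 73, with 3.67 and 2.94 in tumor 61 the next highest. Cacna1s was raised by 1 unit or more in 9 tumors. At the other end, Mb, the oxygen store myoglobin of oxidative fibers, had an SD of 0.54 and stood 2.75 above its median in tumor 73, and Tcap, the telethonin that caps titin, had an SD of 0.27 and stood 1.46 above its median there. Both lay above the floor in all 134 tumors.

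Trdn, which ties the calcium store to the release channel, had 19 probe sets with a single symbol. Their means ran from 3.56 to 7.61 and 7 were above the floor. The one used had the highest mean, and 17 of the 19 had an r above 0.5 with Ckm (0.40 to 0.97).

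Slow fiber genes were the exception. Myh7, the slow heavy chain, had a lowest level of 5.80, a median of 6.18 and a highest of 6.70. Tnni1, the slow inhibitory troponin, ran from 6.04 over 6.35 to 6.97, and Tnnc1, the slow and cardiac troponin C, from 5.69 over 6.06 to 6.68. Myl3 ran from 5.62 over 5.94 to 6.87. Myl2, the slow regulatory light chain, was above the floor in 2 tumors, and Tnnt1, the slow tropomyosin-binding troponin, and Casq2 in 0 of 134. None of these 7 genes reached 1 unit above its median in any tumor. Mybpc1, the slow myosin-binding protein C, which fast fibers also carry, was the one slow gene that moved, from a lowest of 5.62 over a median of 6.13 to a highest of 10.6, and its r with the fast Mybpc2 was 0.92. The series holds no sample of slow muscle, so how far these 7 probe sets can respond was not tested.

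In tumor 73, with the fast genes at their highest, Myh7 lay at 6.07 and Tnnc1 at 5.85, both below their medians, as was Myl2. The others lay above theirs there, Tnni1 by 0.16, Myl3 by 0.18, Tnnt1 by 0.10 and Casq2 by 0.86. Casq2 had its highest level in that tumor (5.53), still below the floor. Tumor 107 was the one with the most slow gene signal, with Myh7 at 6.70, Myl3 at 6.87, Tnnc1 at 6.68 and Tnni1 at 6.96, each the highest or second highest of the 134. By the mean deviation of the slow genes with Mybpc1 left out, tumor 58 came next (0.44), with Tnni1 at 6.97, Myh7 at 6.69 and Myl2 at 6.00, and its array had the largest deviation of all (0.269). Tumor 107 had an array deviation of 0.11, close to the median array. In tumor 55, Tnnc1 stood at 6.65 and Myh7 at 6.53, above their medians but by less than 1 unit, whereas Myh4 stood at 6.79, below its median, and the array deviation there was 0.185. With the deviation of the array, 4 of the 8 slow genes rose over all tumors (Myh7, Tnni1, Tnnt1 and Casq2), against 30.3% of all genes tested. In tumors 1 to 106 it was 6 of 8 (against 33.2%), and without the 2 arrays that deviated most 0 (against 25.7%). None of the 14 fast genes rose with it in these 3 fits, and 2 fell in the last (against 13.7%). With Ckm held in the fit, 10 of 14 fast and 5 of 8 slow genes rose (against 31.2%). The part of array quality in the slow gene levels was not tested beyond this.

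Averaged per tumor, the deviation of the 14 fast genes had an SD of 1.29 over the 134 tumors and that of the 8 slow genes an SD of 0.168, or 0.112 without Mybpc1. In tumor 73 the fast mean deviation was 5.15 and the slow one 0.68, or 0.13 without Mybpc1. Tumor 61 had 4.10, 0.43 and 0.12, and tumor 107 had 4.07, 0.87 and 0.51. As a description over tumors that share the array platform and its scaling, r between the 2 means was 0.78 (rho 0.67), and 0.41 (rho 0.34) with Mybpc1 left out.

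**Figure D2:**
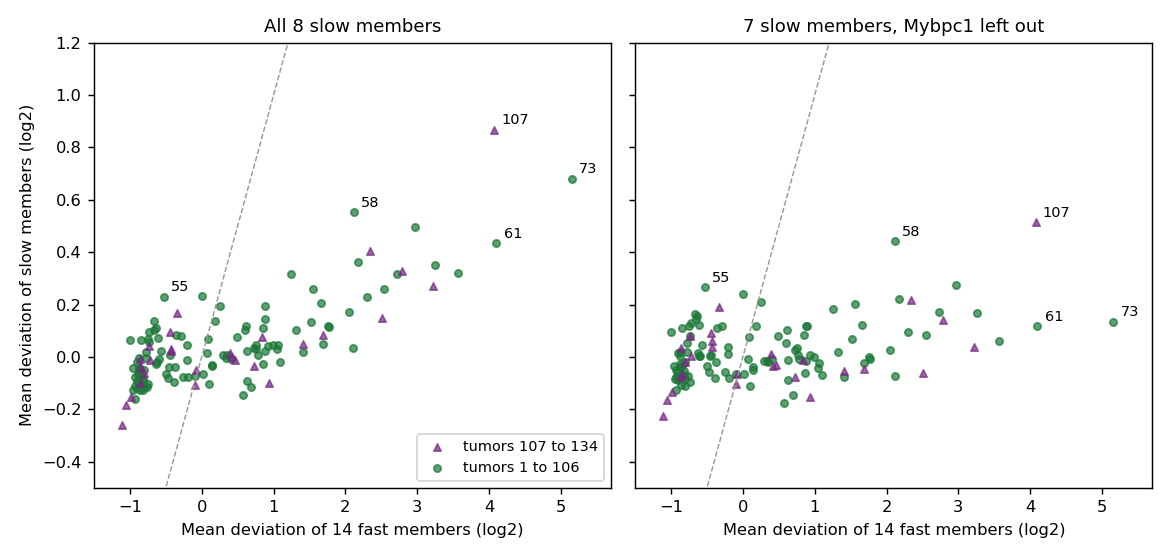
Mean deviation of the 14 fast genes (log2, horizontal axis) against that of the slow genes (log2, vertical axis), for all 8 slow genes (left) and for 7 without Mybpc1 (right). Each point is a tumor, triangles are tumors 107 to 134, circles are tumors 1 to 106, and the dashed line marks equal deviation. The fast mean runs up to 5.15, whereas the slow mean stays at or below 0.87 and, without Mybpc1, at or below 0.51.

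Across tumors the genes moved as one block apart from the slow ones. The mean r over all 780 pairs of the 40 genes was 0.73, with a range of 0.13 to 0.99. It was 0.95 over the 91 pairs of fast genes, 0.89 over the 153 pairs of genes of both fiber kinds, 0.92 between these 2 classes, and 0.45 over the 28 slow pairs. Between the fast and the 7 slow genes other than Mybpc1 it was 0.30. Pygm and Tnnt3 were the closest pair (r = 0.99), and Mylpf and Tnnc1 the loosest (r = 0.13). Among the slow genes Tnni1, Tnnc1 and Myh7 were the closest 3, with r = 0.64 between Tnni1 and Myh7, 0.60 between Tnnc1 and Myh7 and 0.54 between Tnni1 and Tnnc1. Between fast and slow forms of 1 protein, r was 0.20 for Tnnc1 and Tnnc2, 0.42 for Tnni1 and Tnni2, 0.22 for Tnnt1 and Tnnt3, 0.44 for Casq1 and Casq2 and 0.23 for Myh4 and Myh7, but 0.92 for Mybpc1 and Mybpc2. All these values are descriptions over 134 tumors.

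**Figure D3:**
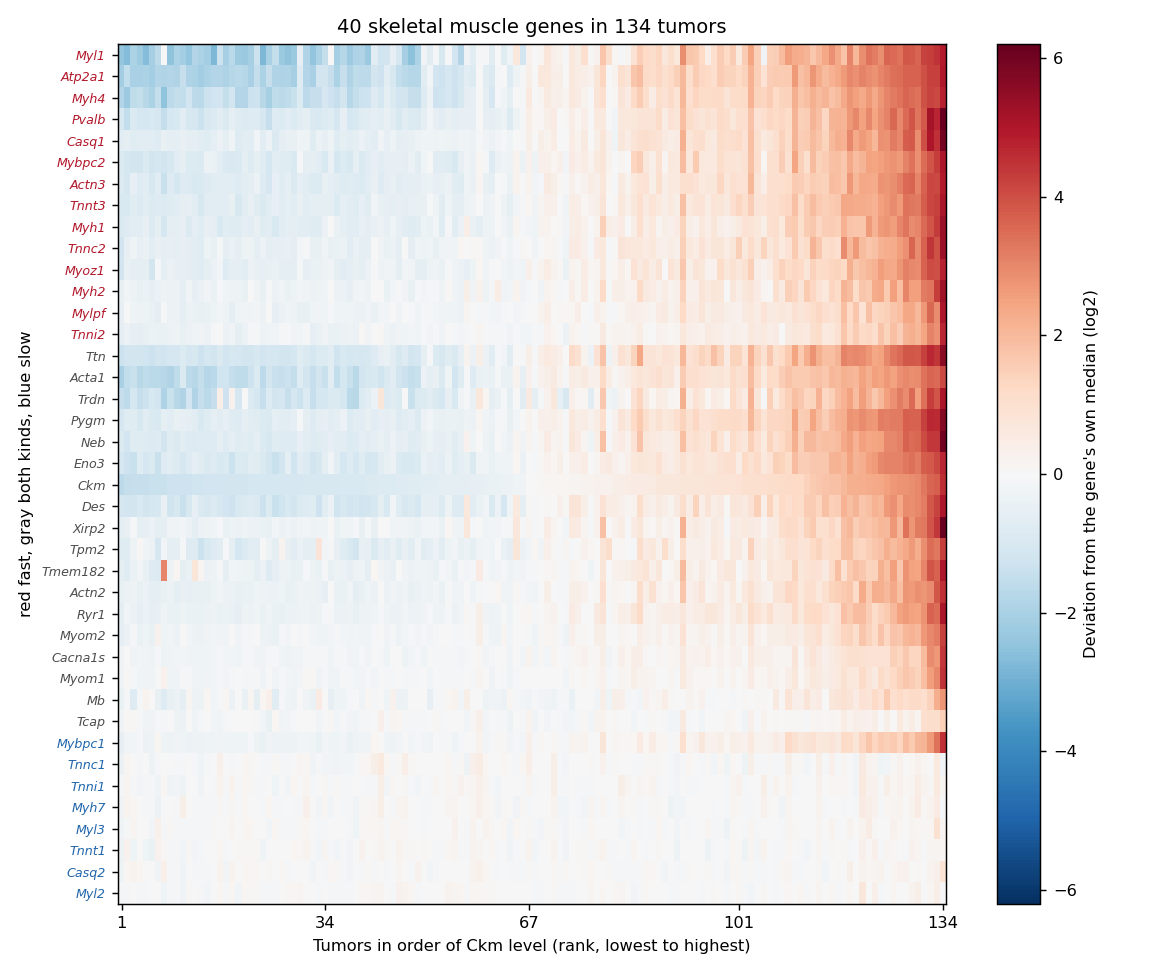
Deviation of each of the 40 genes (rows) from its own median (log2, color) in the 134 tumors (columns), in order of Ckm level from lowest to highest. Fast genes and most genes of both kinds turn from blue to red together along the order, Tmem182 is red in 1 tumor of low Ckm (tumor 94), and 7 slow rows stay pale throughout.

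To give the block an error, each gene was regressed on the level of Ckm over the 134 tumors with limma. Ckm is itself one of the 40 genes, and these were chosen with earlier results of these data known. The counts and p-values therefore describe the block and are no independent test of it. A rise with Ckm passed (adjusted p under 0.05) for 37 of 39 genes, against 7.81% of all 19937 genes tested. All 14 fast genes, all 17 others of both fiber kinds and 6 of 8 slow genes rose. Per unit of Ckm, Myl1 rose by 1.39 ± 0.041 (SE), Atp2a1 by 1.35 ± 0.026, Myh4 by 1.22 ± 0.022 and Eno3 by 1.00 ± 0.016, the last with the smallest adjusted p of the 40 genes, 1.06e-97. The slow genes that passed rose by far less, from 0.03 ± 0.008 for Myl2 to 0.05 ± 0.010 for Tnni1, with Mybpc1 at 0.51 ± 0.021. Tnnc1 (0.02 ± 0.011, adjusted p = 0.167) and Tnnt1 (0.02 ± 0.009, adjusted p = 0.143) did not pass. A gene that sits near the floor in most tumors has its slope understated, which bears on Xirp2 and Myom1 (above the floor in 30 tumors each), Myh2 (55), Mylpf (57), and the slow Myl2, Tnnt1 and Casq2. Myh7, Tnni1, Tnnc1 and Myl3 were above it in 131 to 134 tumors, but their medians lay close to it, from 5.94 for Myl3 to 6.35 for Tnni1. Whether their slopes are understated as well was not tested. Without tumor 73, 37 of 39 genes rose, against 4.94% of all genes. Without the 2 tumors farthest in Ckm, Myl3 and Casq2 no longer passed.

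**Figure D4:**
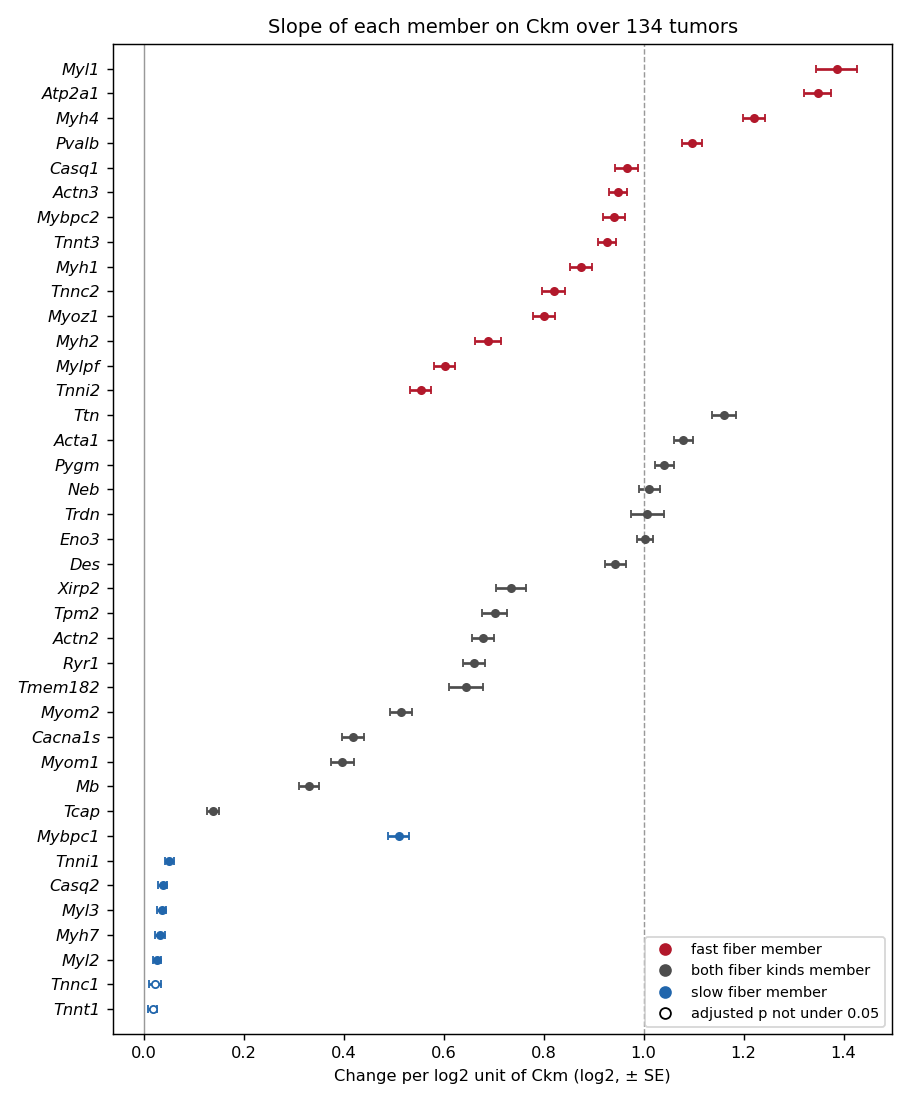
Change of each of 39 genes per log2 unit of Ckm over 134 tumors (points, log2) with its SE (bars), by limma. Fast genes (red) lie between 0.55 and 1.39, slow genes (blue) other than Mybpc1 at or below 0.05, and open points are the 2 genes that did not pass.

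As correlations, 26 of the 39 had an r with Ckm above 0.9. For Eno3 it was 0.98 (rho = 0.95), for Pygm 0.98 (rho = 0.95), for Myh4 0.98 (rho = 0.96) and for Acta1 0.98 (rho = 0.97), each with a permutation p of 1e-05, the smallest that 100000 permutations can give. Without the 2 tumors farthest in Ckm, r was 0.98 for each of these 4. Within tumors 107 to 134 alone and within tumors 1 to 106 alone it was 0.98 and 0.98 for Myh4. For the slow Tnni1, r was 0.42 (rho = 0.37) with permutation p of 1e-05 for each, and 0.38 without the 2 farthest tumors. For Myh7 the r was 0.59 (tumors 107 to 134 alone) and 0.18 (tumors 1 to 106 alone), and the difference was not tested. The 39 correlations form 1 family, and the adjusted p of the limma fit covers it within all genes.

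Single tumors left the line of Ckm. Tmem182, a membrane protein whose transcript is induced in differentiating muscle and fat cells, stood at 9.50 in tumor 94, where Ckm stood at 6.94, and so lay 3.65 above its line. Many genes lay above their lines in tumor 73, among them Myom1 by 2.53, Xirp2 by 2.43, Cacna1s by 2.31 and Mylpf by 2.00. Of the fast heavy chains, Myh2 lay 1.78 and Myh1 1.13 above their lines there. Myl1 lay 1.98 above its line in tumor 94. Tpm2, a beta-tropomyosin that smooth muscle also uses, lay 1.39 above its line in tumor 100. That tumor had the highest Acta2, the smooth muscle actin, at 12.3.

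Counting tumors in which at least 20 of the 40 genes lay 1 unit or more above their own medians gave 26 of 134 (19.4%), 7 of the 28 tumors numbered 107 to 134 and 19 of the 106 others. In 78 tumors no gene did so, and in 30 tumors 1 to 19 genes did. Tumors 73, 107, 61 and 6 had 33 genes raised, tumors 89, 52, 124, 53 and 119 had 32, and the tumor just inside the limit, tumor 8, had 21. The tumors just outside, 65 and 35, had 18. Ckm ran down to 9.06 in the 26 tumors and up to 9.58 in the others, so the levels form a continuum with no gap at the limit. In each of the 26 the fast mean deviation was above the slow one. The limit itself favors this, since 7 of the 8 slow genes reached 1 unit above their medians in no tumor. Demanding a rise of 2 units left 11 tumors, and demanding 75% of the genes left 12. The limit uses the values of the 40 genes themselves, so the tumors were counted and described only.

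No gene of the 40 passed between the runs of label numbers, with 0 higher in tumors 107 to 134 than in tumors 1 to 106 (against 7.7% of all 19938 genes) and 0 lower (against 6.67%). Their differences lay between -0.07 and 0.26, and the smallest adjusted p was 0.157, for Tnni1 (unadjusted p = 0.0452, the 1 gene of the 40 under 0.05). In label order, tumors 97 to 108 and 109 to 120 had correlated Ckm levels, although the labels name a different animal for each. Over these 12 pairs r was 0.79 (permutation p = 0.00087) and rho 0.76 (permutation p = 0.0058). Without the 2 farthest r was 0.62, and over all 12 the median gap was 0.45 and the highest 2.10. The test was not among those planned, and how often another window or offset would give such an r was not tested. Both p-values thus describe this choice of pairs only. Of tumors 109 to 120, 3 were among the 26 counted above, against 1 of tumors 97 to 108. Every fit was repeated without tumors 109 to 120.

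The muscle genes went together with fat genes. Each was regressed on the adipocyte score, the mean z-score of 10 adipocyte genes such as Adipoq, the hormone adiponectin, and Plin1, a lipid droplet coat protein. A rise passed for 34 of 40 genes, against 14.2% of all genes tested, with all 14 fast genes, all 18 of both fiber kinds, and Mybpc1 and Casq2 of the slow ones. Ckm rose by 0.87 ± 0.10 per unit of the score (adjusted p = 4.58e-13) and Tmem182 by 0.91 ± 0.053 (adjusted p = 1.11e-33). The relation was not tight. Tumor 94 had a score of 4.58 and the highest Lep, the fat hormone leptin, at 11.2, with Ckm at 6.94, below its median of 8.33, whereas tumor 89 had a score of 0.24 and Ckm at 11.3. Of the 40 genes, 33 passed without the 2 tumors farthest in the score (against 8.3% of all genes), 32 in tumors 107 to 134 alone (against 3.03%) and 34 in tumors 1 to 106 alone (against 13.7%). Per unit of the score the median change over the 40 genes was 1.40 (tumors 107 to 134 alone) and 0.69 (tumors 1 to 106 alone), and that difference was not tested either.

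**Figure D5:**
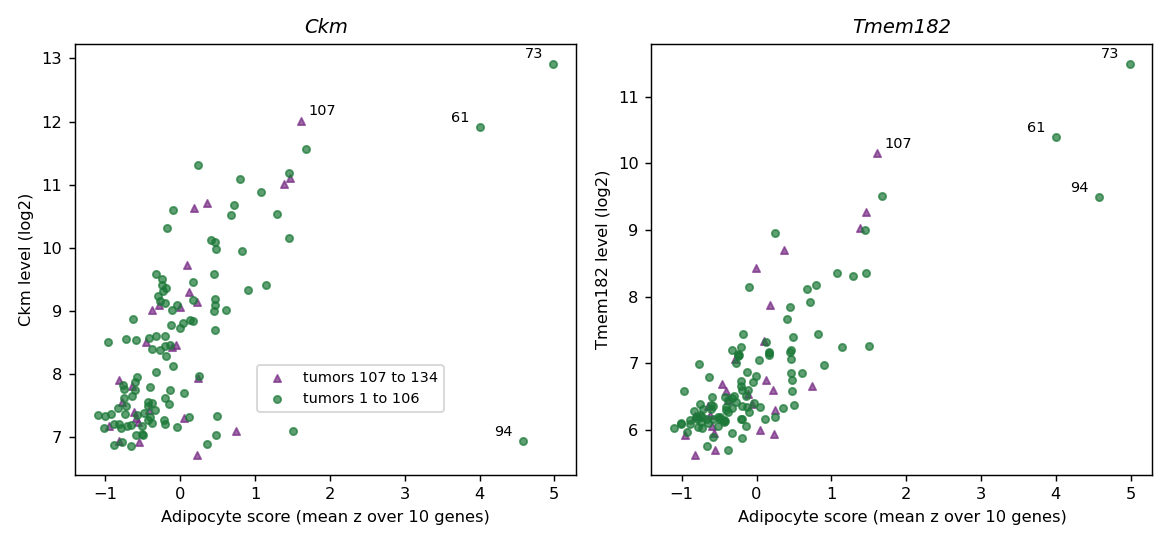
Level of Ckm (left) and of Tmem182 (right), in log2 units, against the adipocyte score (mean z-score of 10 genes, horizontal axis), with tumors 107 to 134 as triangles and tumors 1 to 106 as circles. Both rise with the score in most tumors, and tumor 94, with a score of 4.58, has Ckm at 6.94 and Tmem182 at 9.50.

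With Ckm held in the fit, 23 of 39 genes still rose with the adipocyte score (against 13.4% of all genes tested) and 5 fell (against 14.2%). Tmem182 led with 0.54 ± 0.039 (adjusted p = 2.4e-25), followed by Myom1, an M-band protein, with 0.25 ± 0.036 and Cacna1s and Mylpf with 0.22 each. The 5 that fell were Acta1 (-0.12 ± 0.034), Atp2a1 (-0.12), Myh4 (-0.10), Tnnc1 (-0.06) and Myl2 (-0.03). Without tumors 73 and 94, the 2 farthest in the score, 10 of 39 rose (against 5.19% of all genes) and 0 fell (against 0.998%), with Tmem182 at 0.42 ± 0.054 (adjusted p = 4.36e-10) and Cacna1s at 0.21 ± 0.040 (adjusted p = 1.82e-05) still among those that rose.

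Smooth muscle and epithelial genes gave relations that rested on tumor 73. With the smooth muscle score, 18 of 40 genes rose, against 13.2% of all genes tested, but 2 without tumor 73 (against 7.99%), 4 where Synm, an intermediate filament gene that skeletal muscle also expresses, was left out of the score (against 11.8%), and 0 in tumors 107 to 134 (against 0.903%). With the epithelial score, 21 of 40 genes fell, against 18.5% of all genes tested, but 1 without tumor 73 (against 26.5%). Of the smooth muscle genes, Acta2 had an r of -0.01 with Ckm (rho -0.03, permutation p = 0.89 and 0.69). Of the 12, 3 rose with Ckm (against 7.81% of all genes tested), among them Synm (r = 0.83). Without tumor 73, 1 did (against 4.94%). With the deviation of the array, 6 of 40 genes rose, against 30.3% of all genes tested, and 0 rose without the 2 arrays that deviated most (against 25.7%).

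Other genes of skeletal muscle followed Ckm too. A list of 56 further muscle genes was drawn up with earlier results of these data known, so it is no independent check. Of these, 54 were on the array, 50 rose with Ckm (against 7.81% of all genes tested) and 0 fell (against 11.2%). Their median change was 0.22 per unit, against -0.01 over all genes. The 15 genes outside the 40 with the highest r were Myot (r = 0.94), a Z-disc protein, Klhl41 (0.94), a sarcomere-bound kelch protein, Hspb6 (0.92), a small heat shock protein, Pgam2 (0.91), the muscle phosphoglycerate mutase, Ampd1 (0.91), the muscle AMP deaminase, Klhl31 (0.91), Nrap (0.90), Fhl1 (0.90), Ankrd23 (0.88), Eef1a2 (0.88), the elongation factor of muscle and nerve, Flnc (0.87), Cmya5 (0.87), Cap2 (0.86), Txlnb (0.86) and Ppp1r3a (0.85), the glycogen-bound phosphatase subunit. All 15 had their highest level in tumor 73, and r lay between 0.85 and 0.94 without the 2 tumors farthest in Ckm. Ppp1r3a was above the floor in 12 tumors only and Myot in 70, the others of the 15 in 106 to 134. The 5 most negative were Perp (r = -0.50), a desmosome protein, Tpd52 (-0.49), Egln3 (-0.48), Tex9 (-0.47) and Bclaf3 (-0.47). The permutation p was 1e-05 for r in all 20, and 1e-05 for rho in all but Tex9 (4e-05).

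Among the regulators, 5 of 10 measured genes rose with Ckm (against 7.81% of all genes tested). Myf6, the regulator that stays on in mature fibers, had r = 0.70 and was above the floor in 6 tumors, and Mef2c had r = 0.65. Eya1 had 0.57. Myod1 had 0.32, or 0.21 without the 2 tumors farthest in Ckm. Without tumor 73, 3 of the 10 rose (against 4.94%). Myog, which acts at fusion, and Pax7, the satellite cell factor, did not pass (r = 0.08 and 0.11). Of 8 genes of developing muscle, 4 rose (against 7.81%). Among them were the embryonic heavy chain Myh3, at or below the floor in every tumor, and Chrna1 (r = 0.61), a subunit of the acetylcholine receptor. Chrna1 was above the floor in 6 tumors. Of 7 nerve and endplate genes 2 rose, Mbp and Musk (against 7.81%). Of 12 heart genes 2 rose (against 7.81%), Actc1 (r = 0.49), whose probes may read the closely similar Acta1, and Pln (r = 0.34). Pln was above the floor in 1 tumor. Nppa and Myl7, atrial genes, had r = -0.09 and 0.15.

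Of the other cell types that could accompany muscle, 10 of 10 adipocyte genes rose with Ckm (against 7.81% of all genes tested). So did 6 of 7 brown fat genes, 6 of 6 endothelial genes and 6 of 6 fibroblast genes. Without tumor 73 the counts were 9, 6, 4 and 6 (against 4.94% of all genes tested). Without the 2 tumors farthest in Ckm they were 9, 6, 3 and 5 (against 4.59%). All 6 endothelial genes had their highest level in tumor 73, and for Kdr, a receptor of vascular growth factor, r with Ckm was 0.31, or 0.15 without the 2 farthest tumors. Ucp1, the uncoupling protein of brown fat, had r = 0.64 (rho = 0.49), with a permutation p of 1e-05 for each. It was above the floor in 40 tumors only. It stood at 12.3 in tumor 73, 9.52 in tumor 61 and 5.42, below the floor, in tumor 94. Of the other brown fat genes that rose, Elovl3 was above the floor in 4 tumors and Dio2 in 24. Cidea, Ppara and Otop1 were above it in 129 to 134. Of 5 macrophage genes 2 rose, and of 8 epithelial genes 1 rose (0 without tumor 73) and 2 fell. Of 6 skin keratinocyte genes 0 rose and 1 fell, and of 12 salivary gland genes 0 rose and 0 fell. Over all genes tested, 7.81% rose and 11.2% fell. The part of these cell types in the levels of the muscle genes was not tested.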

How the data were processed

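RNA of 134 tumors was hybridised to Mouse Gene 1.0 ST arrays. The authors deposited log2 values per probe set made with RMA, whose version is not given in the sources used here, and these were used as deposited. Of 35556 probe sets, 21789 had 1 gene symbol, which gave 19938 genes (highest mean per gene). Array medians lay between 6.30 and 6.54, and precision is limited by how many arrays there were. Tumors carry no replicate, so p-values measure the spread between arrays. In it the animal, the tumor, the piece taken and array error cannot be told apart.

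The 40 genes, their fiber classes and the other lists were chosen with earlier results of these data known. Named genes were the 40, the list genes, and the 15 highest and 5 lowest correlations with Ckm outside the 40. Each gene was regressed with limma 3.58.1 (R 4.3.3) on Ckm, on a score (mean z-score of a list), on array deviation or on the run of label numbers, with Benjamini-Hochberg adjustment over all genes and a threshold of 0.05. Tested on simulated data for the Ckm fit (19937 genes), limma called 98 of 100 genes with an added effect of 0.5 SD. It called 49 of 100 with one of 0.3 SD, and 11 genes with none. The simulated noise was normal and independent between genes, whereas real genes move together, so these counts need not hold for the real fit. Correlations had 100000 two-sided permutations. Python 3.11.15, numpy 2.4.6, scipy 1.17.1 and pandas 2.3.3 were used. Alternatives were averaging the probe sets per gene, renewed quantile normalization, dim genes out, ranks, run as covariate, each run alone, tumors left out, Acta1 for Ckm and other limits. Ckm as a covariate, the score without Synm and the slow mean without Mybpc1 or tumor 73 were added after seeing the data.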

Additional observations from a re-analysis of the deposited data

How the results depend on the processing

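No paired analysis was possible because the series is a single group of tumors with no pairs. The genes that rose with Ckm numbered 33 to 38 under every alternative (against 2.57% to 9.69% of all genes tested). Those that rose with the adipocyte score numbered 31 to 34 (against 3.03% to 16.9%) under every alternative without Ckm in the fit. Once Ckm was a covariate and the 2 farthest tumors were left out, 10 rose with the adipocyte score (against 5.19%). With Ckm as a covariate alone 5 fell (against 14.2%). The coefficient turned negative there for Myh4 (-0.10), Atp2a1 (-0.12), Acta1 (-0.12) and, without passing, Trdn (-0.0049). Without the 2 farthest tumors as well, where none fell past the threshold, it was -0.018 for Myh4, -0.15 for Myl1, -0.14 for Atp2a1, -0.019 for Casq2 and -0.14 for Acta1. Without tumors 109 to 120, 1 gene passed between the runs, as higher in the later one (against 8.57% of all genes tested). Genes that rose with the smooth muscle score numbered 2 without tumor 73 (against 7.99% of all genes tested) and 3 on ranks (against 6.6%). They numbered 0 in tumors 107 to 134 (against 0.903%), 1 without the 2 farthest tumors (against 5.87%) and 4 without Synm (against 11.8%). Once Ckm was a covariate, 16 rose with this score (against 12.2%) and 4 fell (against 11.3%). Genes that fell with the epithelial score numbered 1 without tumor 73 (against 26.5% of all genes tested) and 3 on ranks (against 17.2%). They numbered 1 in tumors 107 to 134 (against 14.9%) and 1 without the 2 farthest tumors (against 23.1%). With Ckm as a covariate, 24 fell with this score (against 18.9%). Genes that rose with array deviation numbered 1 after renewed quantile normalization (against 12.5% of all genes tested), 2 with dim genes out (against 12%) and 0 on ranks (against 6.55%). They numbered 12 in tumors 1 to 106 (against 33.2%) and 0 in tumors 107 to 134 (against 9.56%). Without the 2 farthest tumors 0 rose (against 25.7%), and with Ckm as a covariate 29 did (against 31.2%). Those that fell with it numbered 1 in tumors 107 to 134 (against 6.96%) and 5 without the 2 farthest tumors (against 13.7%). Tumors with muscle content numbered 11 with a rise of 2 log2 units and 12 with 75 percent of the genes. The mean pairwise r lay between 0.67 and 0.79. The cause of these changes was not tested.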
